A study of Mus musculus with 30 samples.

Results

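The 44 genes described here are the collagen genes of the mouse, chosen by name: every protein-coding gene whose symbol is Col, a number, the letter a and a number (Col1a1, Col25a1). They were 44 of 30205 genes that could be matched to the transcripts measured. The rule uses symbols and no measured value, but it was set with earlier results of these data known. RNA was sequenced from C2C12 cells, an established line of mouse myoblasts, and from primary cells of mouse muscle, to ask how the surface under the cells alters the maturation of myotubes. C2C12 myoblasts at D0 (day 0, confluent, before serum was withdrawn) were on plastic, and C2C12 myotubes at D4 and D7 of differentiation were on plastic, on an unpatterned gelatin hydrogel or on a patterned one moulded with 10 µm grooves. The primary cells were at D0 on plastic per the labels, although the study's methods describe coated dishes, and at D4 and D7 on patterned gelatin only. Each of these 10 groups had 3 libraries.

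For these groups the sources state no engineered mutation and no drug treatment. C2C12 cells are a single line, so their 3 libraries per group are cultures of that line. Primary myoblasts came from the hindlimb muscle of 3 8-week-old C57/Bl6J mice, freed of fast-attaching cells by pre-plating, and the sources do not tie a library to a mouse. All cells were differentiated in horse serum, and cultures at D4 and D7 were briefly trypsinised to enrich the myotubes before RNA was taken. The methods describe this enrichment for D4 and D7 only, so in comparisons with D0 it cannot be told apart from time. Primary cells at D0 and D4 differed in surface as well, and no primary myotubes on plastic or on unpatterned gelatin were analysed here. Libraries of a group came from separate cultures per the study's results section, so p-values measure the spread between cultures. That section also names different batches of C2C12 cells and reports that the genes regulated often differed between them. The labels do not mark these batches, so no batch term was fitted and batch was not tested.

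Estimated counts per library totalled 13.1 M to 59.4 M (M is 1000000 counts). The labelled cell types had their markers: Myod1 was between 112 and 953 TPM in every library, and the 8 myotube markers summed to 872 to 2518 TPM at D0 and to 12975 to 28557 TPM at D4 and D7. TPM (transcripts per 1000000) is a length-corrected share of all transcripts. The primary libraries numbered 3 stood apart from those numbered 1 and 2 on all 3 days, and an axis that separated them held 60.0% of the variance among the 9 primary libraries after group means were removed. In the library labelled primary D7 replicate 3, Ckm, the muscle creatine kinase, was at 14.1 TPM, against 777 and 574 TPM in the other two. Results for primary cells are therefore given with and without number 3 wherever that matters.

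Collagens are the secreted or membrane-bound proteins that form the scaffold of the extracellular matrix. A collagen molecule is 3 chains wound into a triple helix, and in that helix glycine must recur at every 3 residues. Fibrillar collagens (types I, III, V) form the fibres of connective tissue, basement membrane collagens (type IV) form the sheet that surrounds each muscle fibre, type VI forms beaded filaments that tie that sheet to the fibres around it, and transmembrane collagens (XIII, XVII, XXIII, XXV) sit in the plasma membrane and can be shed from it. In muscle, fibroblasts are the main source of fibrillar collagen, and mutations in the type VI genes cause muscle disease. Types XIII and XXV are made by the muscle fibre itself and are known for their part at the neuromuscular junction and in the innervation of muscle. Gelatin is denatured collagen, and the gelatin of the hydrogels was a pig protein that adds no RNA.

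The glycine rule can be read from the transcripts. A glycine codon is GG followed by any base, so a triple helix is a run of 9-base units, each opening with a glycine codon. The longest unbroken run in each gene's protein-coding transcripts (GENCODE M21) held at least 20 units in 44 of 44 collagen genes and in 22 of 21833 other protein-coding genes, searched in all forward frames. The run was 344 units long in Col3a1, 338 in Col1a1, 87 in Col6a1, 40 in Col4a1, 43 in Col23a1, 40 in Col25a1 and 23 in Col26a1, the shortest. The opening 8 units (72 bases) of the longest run are shown for the leading fibrillar gene, for a type VI chain, for a type IV chain and for the pair of membrane collagens that changed most in these cells, with each glycine codon in capitals:
Col3a1: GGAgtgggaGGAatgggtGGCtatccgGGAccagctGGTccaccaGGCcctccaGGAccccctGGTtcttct
Col6a1: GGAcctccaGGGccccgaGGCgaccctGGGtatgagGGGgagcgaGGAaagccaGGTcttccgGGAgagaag
Col4a1: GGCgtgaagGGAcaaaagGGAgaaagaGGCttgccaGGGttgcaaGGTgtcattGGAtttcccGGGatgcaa
Col23a1: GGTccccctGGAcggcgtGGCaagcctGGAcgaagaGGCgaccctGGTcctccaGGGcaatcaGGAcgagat
Col25a1: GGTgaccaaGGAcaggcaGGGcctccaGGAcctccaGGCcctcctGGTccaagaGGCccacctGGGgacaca
These lie at bases 700 to 771 of Col3a1-201, 1021 to 1092 of Col6a1-201, 354 to 425 of Col4a1-201, 535 to 606 of Col23a1-201 and 1158 to 1229 of Col25a1-201, counted from the 5′ end of the transcript. Runs were unbroken over the whole helix in the fibrillar genes of types I, II, III, V and XI (337 to 344 units) and shorter in type IV and in the membrane collagens, whose helices have breaks.

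Of the 44 genes, 29 reached a mean of at least 1 TPM in some group and 18 reached 10 TPM, while 12 stayed below 1 TPM in every library. The filter on low counts kept 34 members for the C2C12 libraries, 32 for the primary libraries and 36 when all 30 libraries were fitted together, and 8 (Col2a1, Col4a4, Col6a4, Col6a5, Col6a6, Col9a1, Col9a2 and Col15a1) were tested in no fit. The 44 genes held 0.617% ± 0.054 (SD, n = 3) of the counts of C2C12 myoblasts at D0 and 0.544% ± 0.092 at D4 on plastic. Primary cells gave them 0.291% ± 0.029 at D0, 0.16% ± 0.072 at D4 and 0.126% ± 0.053 at D7. Each of the 21 C2C12 libraries was above each of the 9 primary libraries in this share.

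C2C12 cells made mostly fibrillar collagen RNA. Col3a1, the single chain of type III, led in all 7 C2C12 groups with group means of 432 to 741 TPM and 30.1% to 40.5% of the summed collagen TPM. Col1a2 and Col5a2 came next in every C2C12 group, with means of 182 to 353 TPM and of 167 to 218 TPM, and in C2C12 D7 on unpatterned gelatin Col5a2 (218 ± 22.5 TPM) and Col1a2 (210.2 ± 29.5 TPM) did not differ beyond their spread. Primary cells were different in make-up: at D0 they were led by Col3a1 (256 ± 38.2 TPM), Col18a1 (162 ± 92.7) and Col4a1 (148 ± 51.4), and at D4 and D7 by Col25a1, with 33.8% and 30.7% of the summed collagen TPM.

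**Figure D1:**
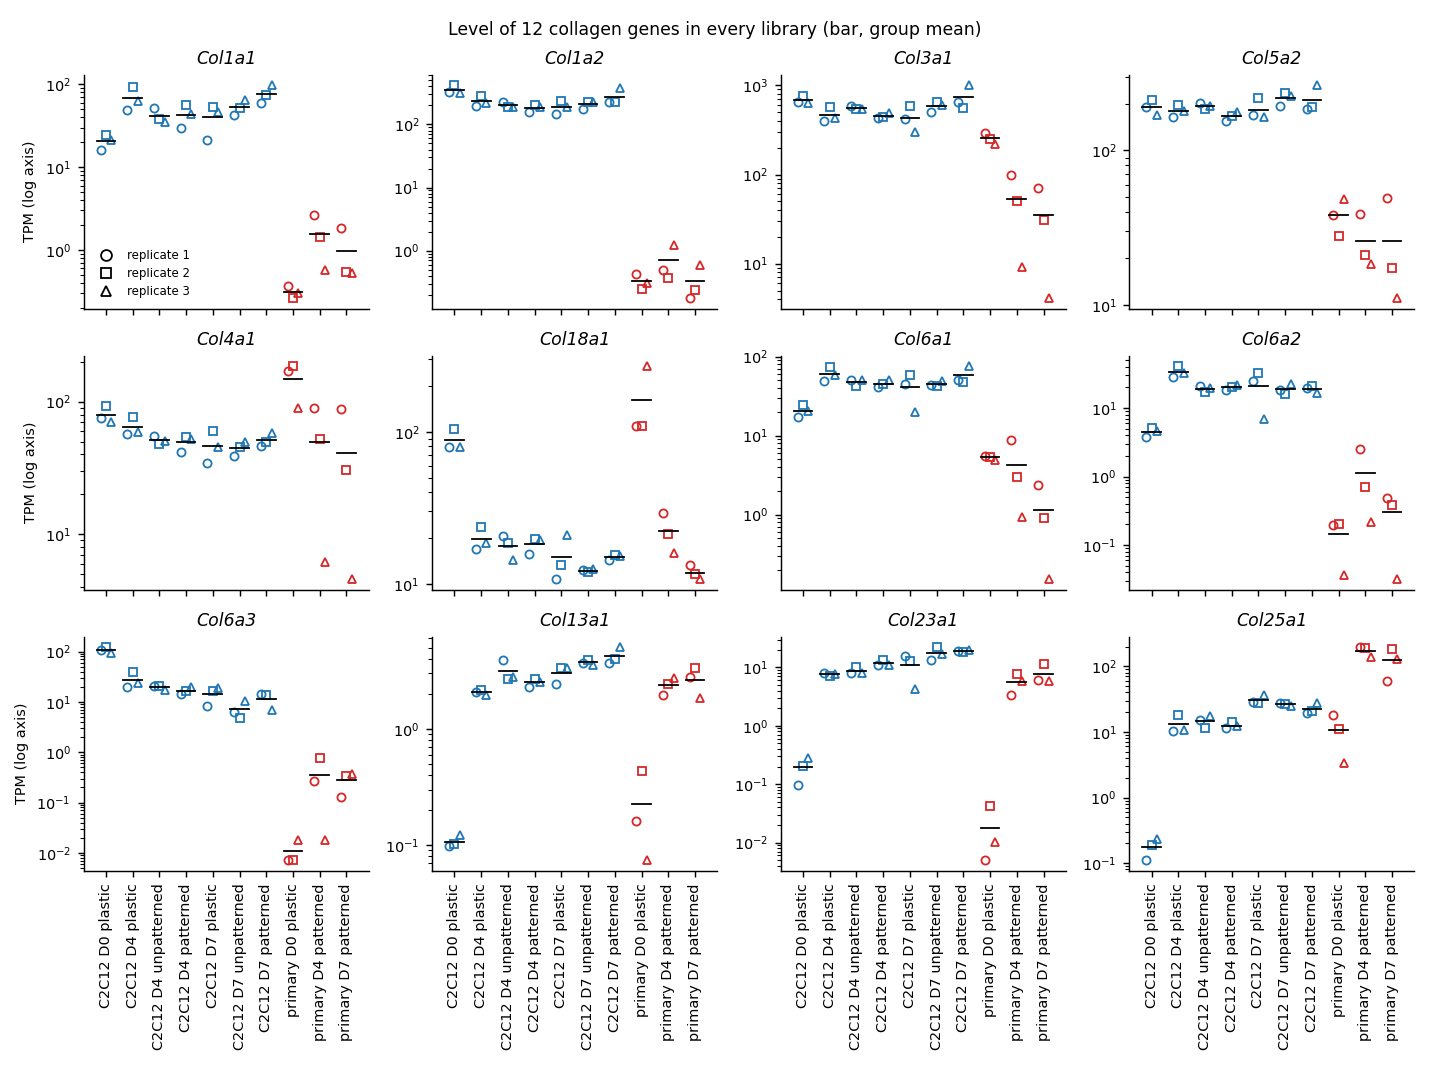
TPM on a log axis (vertical) of 12 collagen genes in each of the 30 libraries, grouped by cells, day and surface (horizontal). Blue is C2C12, red is primary, symbols mark the replicate number and bars are group means; a level of 0 is drawn at 0.005. Col13a1, Col23a1 and Col25a1 are lower at D0 than in every D4 and D7 library of the same cells, Col18a1 is high at D0 only, and Col1a1 and Col1a2 are under 3 TPM in all primary libraries.

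In C2C12 cells on plastic, D4 against D0, 15 collagen genes were higher and 6 lower of the 34 tested (adjusted p under 0.05, edgeR quasi-likelihood test with Benjamini-Hochberg adjustment over all genes). The D4 cultures were also enriched for myotubes, and the part of that step was not tested. Among all 14844 genes tested 58.0% passed, with 30.2% higher and 27.7% lower, so the share of collagen genes that changed, 61.8%, was near the background. The median log2 fold change of the collagen genes was 0.40, against 0.00 for all genes. In bulk RNA, fewer cells of a type and less RNA per cell cannot be told apart, and the same holds for more.

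The membrane collagens gave the highest changes. Col25a1, a transmembrane collagen that motor axons need to enter muscle, was at 0.111, 0.188 and 0.237 TPM in the 3 D0 libraries and at 10.5, 18.4 and 10.7 TPM at D4. Col23a1, another transmembrane collagen, was at 0.0984, 0.201 and 0.279 TPM at D0 and at 8.05, 7.08 and 7.77 TPM at D4. Col13a1, which helps to form the neuromuscular junction, was at 0.0985, 0.101 and 0.122 TPM and then at 2.09, 2.17 and 1.96 TPM. For all 3 genes each D4 library was above each D0 library, by far more than the spread within a group. The log2 fold changes, with their standard errors, were 6.30 ± 0.27 for Col25a1 (adjusted p = 2.5e-13), 5.82 ± 0.46 for Col23a1 (2.1e-09) and 5.18 ± 0.32 for Col13a1 (4.0e-11). Col17a1, the fourth transmembrane member and a gene known from skin, was below 1 TPM throughout and was lower at D4 (log2 fold change -1.96 ± 0.34, adjusted p = 6.4e-05).

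Type VI collagen changed in opposite directions by chain. Col6a1 was at 17.3, 24.2 and 20.7 TPM at D0 and at 49.2, 74.1 and 57.8 TPM at D4, and Col6a2 at 3.77, 5.14 and 4.63 TPM and then at 28.0, 40.7 and 32.9 TPM. Col6a3, the large chain that completes the type VI molecule, was at 109, 121 and 94.1 TPM at D0 and at 19.4, 39.2 and 23.8 TPM at D4. The D0 and D4 libraries did not overlap for any of the 3 genes. Col6a1 rose (log2 fold change 1.77 ± 0.24, adjusted p = 2.8e-06), Col6a2 rose (3.07 ± 0.33, 1.5e-07) and Col6a3 fell (-1.61 ± 0.27, 3.5e-05). Col6a1 and Col6a2 are neighbours on chromosome 10, 85161 bases apart on the same strand, and Col6a3 is on chromosome 1.

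Among the fibrillar genes 6 of 10 tested rose and none fell, by the same edgeR test. The summed TPM of the fibrillar class was 1335 ± 154 at D0 and 1095 ± 199 at D4, which overlap. Its highest genes, Col3a1 and Col1a2, were lower in TPM at D4 without overlap. TPM and the counts that were tested are scaled differently, so they need not move alike. Col1a1, the α1 chain of type I, was at 15.9, 24.4 and 21.4 TPM at D0 and at 48.8, 93.1 and 62.7 TPM at D4, without overlap (log2 fold change 2.00 ± 0.33, adjusted p = 3.1e-05). Col5a1 rose by 0.97 ± 0.17 on the log2 scale (adjusted p = 5.2e-05) and Col5a3 by 0.82 ± 0.21 (0.0023). The 3 other calls, Col11a1, Col11a2 and Col24a1, were of genes with D4 means of at most 2.01 TPM, and each was lost when at least 1 of the 6 libraries was left out. Col1a2 (323, 419 and 319 TPM, then 199, 283 and 217 TPM), Col3a1 (659, 749.9 and 629.6, then 400.1, 566 and 430.3) and Col5a2 (192, 212 and 170.3, then 164, 198 and 179) did not pass the test, and their log2 fold changes from counts were -0.36 ± 0.20, -0.26 ± 0.20 and 0.18 ± 0.15 (adjusted p 0.14 to 0.32).

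Of the other classes, Col18a1, whose cleaved end is endostatin, an inhibitor of blood vessel growth, was at 79.8, 104 and 79.3 TPM at D0 and at 16.9, 23.8 and 18.5 TPM at D4, and fell (log2 fold change -1.97 ± 0.21, adjusted p = 1.5e-07). Type VIII, a short-chain network collagen, moved apart: Col8a2 fell by 0.99 on the log2 scale (SE 0.19, adjusted p = 0.00019) while Col8a1 rose by 0.58 ± 0.12 (0.00035). Of the fibril-associated collagens, Col14a1 (-1.84 ± 0.30) and Col16a1 (-1.21 ± 0.17) fell and Col20a1 rose (1.07 ± 0.30), all at levels under 10 TPM. The Col16a1 call was lost when protein-coding transcripts alone were counted (log2 fold change -1.08, adjusted p = 0.069). Basement membrane collagen gave no call among 4 genes tested: Col4a1 was at 75.4, 92.5 and 70.6 TPM at D0 and at 56.7, 77.3 and 58.6 TPM at D4 (log2 fold change -0.10 ± 0.15, adjusted p = 0.62). Col28a1 was called higher (2.71 ± 0.45), but 1 library, C2C12 D4 on plastic replicate 2, had 1.56 TPM against 0.144 and 0.244 TPM in the other two.

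In primary cells, D4 on patterned gelatin against D0 on plastic, 7 collagen genes rose and 3 fell of 32 tested (31.2%), where 42.6% of 14352 genes passed, 20.2% higher and 22.4% lower. The 3 membrane collagens were again among the genes that rose. Col25a1 was at 18.0, 10.9 and 3.39 TPM at D0 and at 194, 188 and 139 TPM at D4 (log2 fold change 4.17 ± 0.63, adjusted p = 0.0010), Col23a1 at 0, 0.0427 and 0.0101 TPM and then at 3.38, 7.86 and 5.88 TPM (7.43 ± 0.67, 7.8e-05), and Col13a1 at 0.16, 0.438 and 0.0743 TPM and then at 1.96, 2.44 and 2.72 TPM (3.43 ± 0.57, 0.0015). The groups did not overlap for any of them. Col23a1 rested on 5 counts in all at D0 against 853 at D4, so the size of its fold is uncertain.

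Col18a1 fell in primary cells as well, from 108, 109 and 269 TPM to 29.1, 21.3 and 16.0 TPM (log2 fold change -2.97 ± 0.42, adjusted p = 0.00066). Col24a1 (4.32, 4.81 and 4.10 TPM, then 0.925, 3.09 and 0.963 TPM) and Col26a1 (72.1, 60.8 and 43.9 TPM, then 27.3, 27.9 and 26.9 TPM) were also lower, the latter by 0.81 on the log2 scale (SE 0.20, adjusted p = 0.010). Col1a1 rose from 0.363, 0.264 and 0.30 TPM to 2.61, 1.43 and 0.580 TPM and Col5a3 from 0.437, 0.278 and 0.176 TPM to 9.01, 3.42 and 0.657 TPM, in each case with the highest D4 value in replicate 1 and the lowest in replicate 3. Col10a1 was called from 1 count at D0 and 31 at D4, and Col7a1 (1.07 ± 0.29, adjusted p = 0.016) with overlapping levels.

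Primary libraries of the same number deviated together, and a fit that kept the number as a block called 18 collagen genes, 10 higher and 8 lower. Leaving out number 3 also gave 18 calls, 9 higher and 9 lower. Col3a1, at 295, 253 and 219 TPM at D0 and at 98.5, 51.0 and 9.13 TPM at D4, did not pass the unblocked test (log2 fold change -2.06 ± 0.95, adjusted p = 0.11), but fell in the blocked fit (-2.81, adjusted p = 0.011) and without number 3 (-1.54, 0.017). Col8a1, at 95.7, 95.3 and 14.4 TPM and then at 14.3, 13.5 and 0.382 TPM, fell in the blocked fit (-3.42, adjusted p = 0.0012), and so did Col4a1 (-2.30, 0.013), Col4a2 (-1.53, 0.019) and Col16a1 (-2.51, 0.021). Col6a2 (2.67, 0.0023), Col1a2 (1.56, 0.012) and Col11a2 (1.08, 0.014) rose in it, each from a low level. In these genes every library fell or rose within its own number, with different starting levels.

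**Figure D2:**
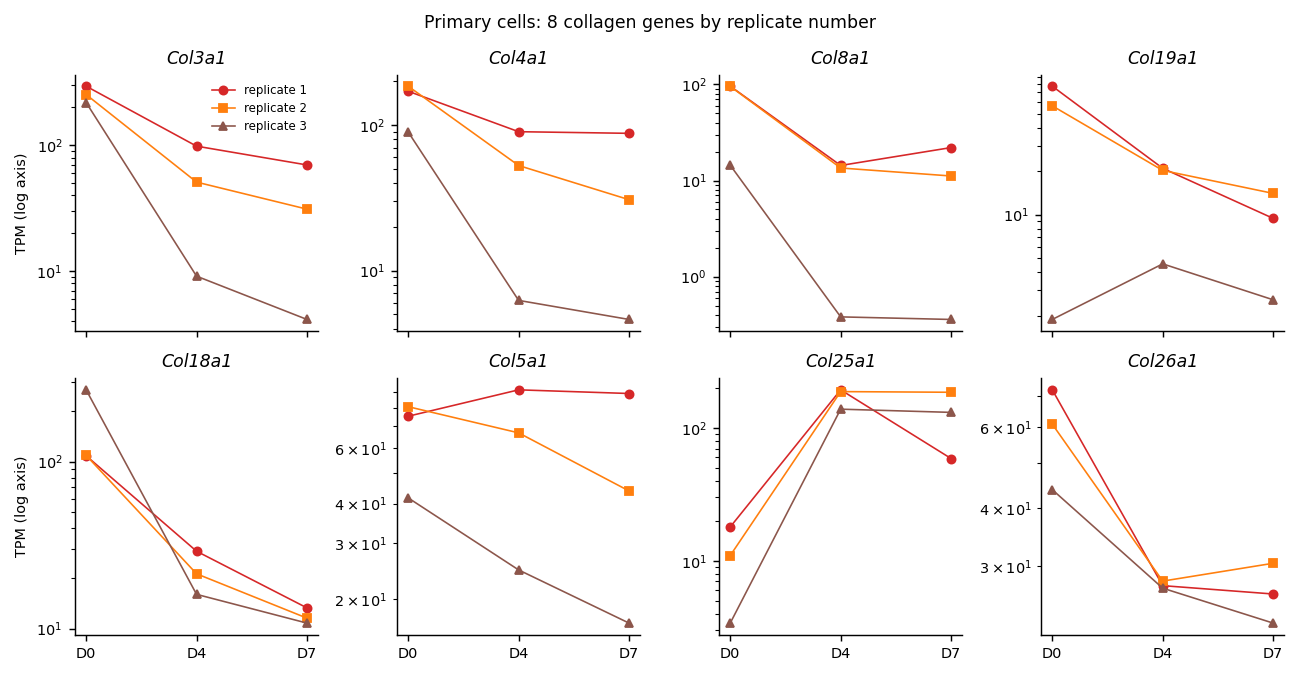
TPM on a log axis (vertical) of 8 collagen genes in primary cells at D0 on plastic and at D4 and D7 on patterned gelatin (horizontal), with a line per replicate number. Replicate 3 is low for Col3a1, Col4a1, Col5a1, Col8a1 and Col19a1 and high for Col18a1 at D0, while Col25a1 is higher at D4 and D7 than at D0 in all 3.

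Of the 30 collagen genes tested in both D4 comparisons, 6 were higher in both (Col1a1, Col5a3, Col7a1, Col13a1, Col23a1 and Col25a1), Col18a1 was lower in both and Col24a1 was called in opposite directions. Of all genes, 30.2% were higher and 27.7% lower in C2C12 cells, and 20.2% and 22.4% in primary cells. The share of all genes called alike in both was not counted, so the overlap cannot be called particular to collagen genes. These comparisons share no libraries. The 8 myotube markers moved with them, with 8 of 8 higher in C2C12 and 7 of 8 in primary cells, and Mki67, a marker of dividing cells, went from between 111 and 131 TPM to between 13.1 and 14.3 TPM in C2C12 and from between 13.4 and 37.7 TPM to between 0.611 and 4.59 TPM in primary cells. The 12 fibroblast markers summed to 728 to 809 TPM at D0 and to 516 to 534 TPM at D4 in C2C12 cells (2 of 8 tested higher, 4 lower), and to 177 to 249 and 57.5 to 179 TPM in primary cells (0 of 7 called). The 6 Schwann cell markers summed to 12.9 to 16.0 and then to 62.9 to 72.1 TPM in C2C12 cells, and to 6.67 to 15.7 and then to 97.1 to 139 TPM in primary cells, with 1 of 3 tested higher in each. Most of these sums was Erbb3 (61.3 to 70.6 TPM in C2C12 and 95.9 to 137 TPM in primary cells at D4), while Sox10, which defines that cell type, was at or below 0.01 TPM in these libraries. The part of these markers in the collagen changes was not tested.

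**Figure D3:**
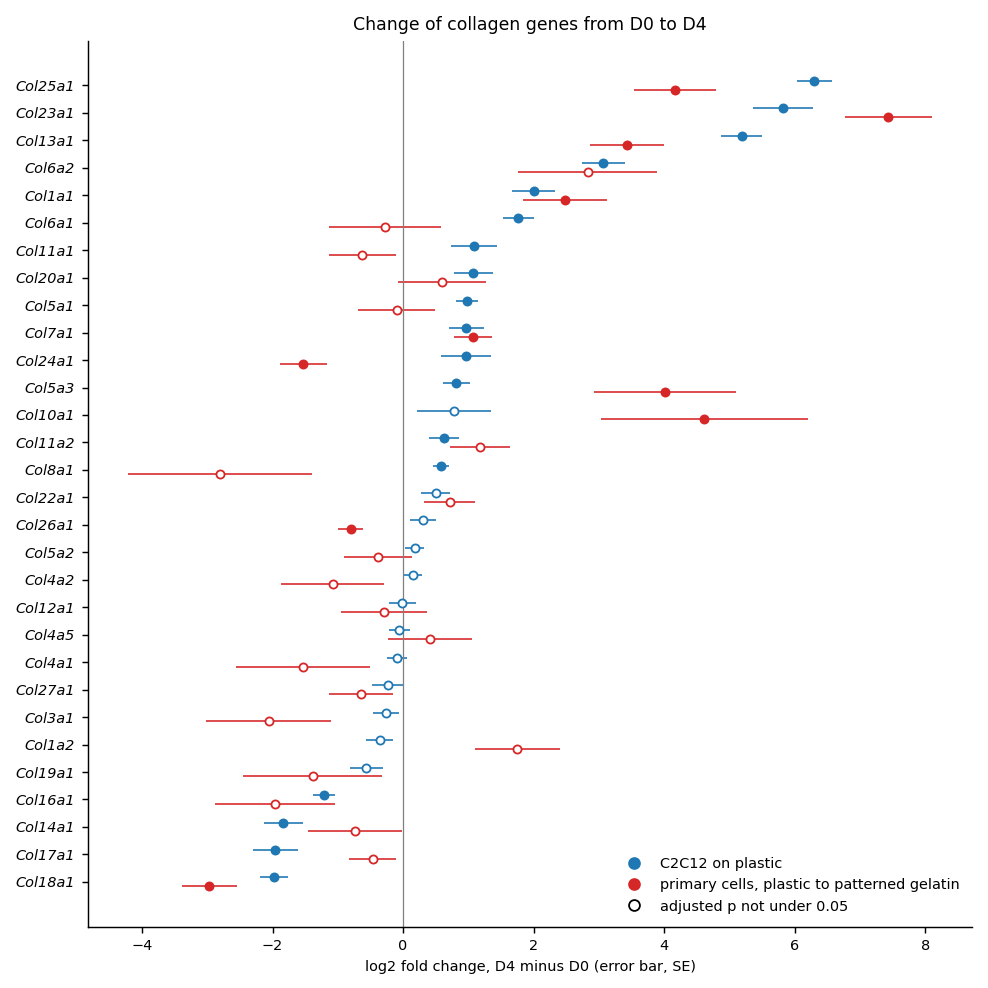
Log2 fold change from D0 to D4 (horizontal) of the 30 collagen genes tested in both cell types (vertical, ordered by the C2C12 value), with standard errors. Blue is C2C12 on plastic and red is primary cells, filled where the adjusted p was under 0.05. Col25a1, Col23a1 and Col13a1 lie furthest to the right in C2C12, between 5.18 and 6.30, and Col18a1 furthest to the left in both.

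Changes from D4 to D7 were tested on each surface by itself, and the numbers of calls do not test whether the surfaces differ. On plastic 11 collagen genes fell and 1 rose of 34 tested, where 14.8% of all genes passed, with 8.37% lower and 6.47% higher. On patterned gelatin 8 rose and 1 fell, where 20.3% of all genes passed, 11.3% higher and 9.03% lower. On unpatterned gelatin 1 rose, where 2.92% of all genes passed, 1.62% higher and 1.31% lower. Col25a1 was the gene called on all 3 surfaces. It went on plastic from 10.5, 18.4 and 10.7 TPM to 28.3, 27.3 and 36.5 TPM, on unpatterned gelatin from 15.4, 11.4 and 17.5 TPM to 27.8, 27.0 and 25.2 TPM, and on patterned gelatin from 11.4, 14.0 and 12.2 TPM to 19.2, 20.9 and 27.6 TPM. The D7 libraries were above the D4 libraries on each surface, by log2 fold changes of 1.11 ± 0.17 (adjusted p = 0.00044), 0.78 ± 0.17 (0.018) and 0.63 ± 0.17 (0.018). The call on unpatterned gelatin was lost on leaving out any of replicates 1 and 2 of either day.

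On plastic the genes that fell were of 6 classes: Col1a1, Col5a1 and Col5a3 of the fibrillar class, Col4a1 and Col4a2, Col6a1, Col6a2 and Col6a3, Col8a1, Col16a1 and Col18a1. Col6a3 was at 19.4, 39.2 and 23.8 TPM at D4 and at 8.11, 16.2 and 19.3 TPM at D7 (log2 fold change -1.39 ± 0.27, adjusted p = 0.0023), and Col5a3 at 15.3, 24.2 and 17.8 TPM and then at 6.55, 11.7 and 12.8 TPM (-1.12 ± 0.21, 0.0018). These 2 genes and Col16a1 had no overlap between the days, and the other 8 did. The share of all genes without overlap was not counted, so this number has no background. The count rested on single libraries: without C2C12 D4 on plastic replicate 2 it was 6, and without C2C12 D7 on plastic replicate 1 it was 7. C2C12 D7 on plastic replicate 3 stood apart in type VI collagen, with 19.8 TPM of Col6a1 and 6.87 of Col6a2 against 45.6 and 59.1 TPM and 24.7 and 32.0 TPM in the other two.

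On patterned gelatin Col28a1, Col1a1, Col7a1, Col13a1, Col3a1, Col1a2, Col25a1 and Col5a2 rose, Col28a1 at a level under 1 TPM. Col1a1 was at 29.8, 55.9 and 43.3 TPM at D4 and at 59.0, 75 and 97.7 TPM at D7 (log2 fold change 0.98 ± 0.32, adjusted p = 0.038). Col3a1 was at 432, 446 and 489.9 TPM and then at 658, 561 and 1005 TPM (0.66 ± 0.20, 0.030). Part of this TPM was Col3a1-207, a 431-base transcript annotated as a retained intron. It held 9.08% of Col3a1 TPM at D4 and 22.4% at D7 (means 41.6 and 175 TPM). The days did not overlap for Col1a1 or Col3a1, but the library labelled C2C12 D7 patterned replicate 3 was the highest in both, and without it 3 calls remained in number. Without C2C12 D4 patterned replicate 1 or replicate 3 the numbers were 2 and 3, and with only these 6 libraries in the fit the number was 2. Col4a3 was lower at D7 (-1.69 ± 0.58, adjusted p = 0.045), at 1.16, 0.461 and 1.06 TPM against 0.268, 0.230 and 0, and 72.1% of its C2C12 level came from a 627-base transcript that holds little of the gene.

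In primary cells no collagen gene passed between D4 and D7 by edgeR, and none of the 14352 genes tested did (0.0%), while 666 had an unadjusted p under 0.05, and neither DESeq2 nor the blocked fit called a collagen gene. Without number 3 Col18a1 was called, from 29.1 and 21.3 TPM to 13.3 and 11.5 TPM (log2 fold change -1.05, adjusted p = 0.033). With number 3, its levels did not overlap between the days.

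Patterned and unpatterned gelatin were compared to ask what the grooves add. No collagen gene passed at D4 or D7 by edgeR, where 0.00674% and 0.546% of all 14844 genes did. An unadjusted p under 0.05 was reached by 1281 of all genes at D4 and 2943 at D7, and DESeq2 called 2 collagen genes lower at D4 and 1 higher at D7. Without C2C12 D7 patterned replicate 1 the D7 count was 2, and without replicate 2 it was 1. The median collagen log2 fold change was -0.10 at D4 and 0.14 at D7.

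Gelatin was compared with plastic on each day by itself. At D4, 5 collagen genes were lower on patterned gelatin and none higher, of 34 tested, where 3.55% of all genes passed, 1.46% lower and 2.1% higher. Col8a2 was at 3.13, 4.44 and 3.28 TPM on plastic and at 1.40, 1.73 and 1.61 TPM on patterned gelatin (log2 fold change -1.26 ± 0.21, adjusted p = 0.0027). Col12a1, a fibril-associated collagen that links fibres to cells and whose loss causes myopathy, was at 95.5, 116 and 99.2 TPM on plastic and at 51.5, 65.6 and 68.1 TPM on patterned gelatin (-0.87 ± 0.21, 0.027). Col4a2 (-0.60 ± 0.14, 0.027), Col8a1 (-0.46 ± 0.12, 0.040) and Col28a1 (-2.15 ± 0.41, 0.0075) were also lower. Col28a1 was near the floor, at 0.144, 1.56 and 0.244 TPM on plastic and at 0.0562, 0.0986 and 0.0309 TPM on patterned gelatin. Its high value was in C2C12 D4 on plastic replicate 2. The groups did not overlap for any of the 5, but the share of all genes without overlap was not counted. Leaving out any 1 of the 6 libraries brought the number of calls to 2 or 3. Fitting the 6 libraries alone brought it to 15, of which 14 were lower. On unpatterned gelatin at D4 Col12a1, at 67.3, 58.6 and 68.7 TPM, was lower than on plastic as well (-0.77 ± 0.21, adjusted p = 0.031), with Col4a2 (-0.51 ± 0.14, 0.035) and Col6a3 (-0.95 ± 0.27, 0.036), where 7.89% of all genes passed, 3.87% lower and 4.02% higher. Leaving out any 1 library brought these 3 to 0 or 1, and fitting the 6 libraries alone brought them to 9, all lower.

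At D7, 9 collagen genes were higher on patterned gelatin than on plastic and 2 lower, of 34 tested (32.4%), where 23.8% of all genes passed, 12.9% higher and 10.9% lower. The fibrillar class gave 6 of the 9: Col1a1 (1.17 ± 0.32 on the log2 scale, adjusted p = 0.016), Col3a1 (1.01 ± 0.20, 0.0039), Col5a3 (0.92 ± 0.21, 0.0074), Col1a2 (0.66 ± 0.20, 0.027), Col5a1 (0.47 ± 0.17, 0.046) and Col5a2 (0.42 ± 0.15, 0.047). Col16a1 (0.92 ± 0.19), Col23a1 (0.76 ± 0.27) and Col13a1 (0.60 ± 0.18) were the others. Col1a1 was at 21.4, 53.4 and 46.8 TPM on plastic and at 59.0, 75 and 97.7 TPM on patterned gelatin, without overlap. Col3a1 was at 415, 583 and 298 TPM on plastic and at 658, 561 and 1005 TPM on patterned gelatin, with 1 patterned library below the highest plastic library. The retained-intron transcript Col3a1-207 held 15.0% of Col3a1 TPM on plastic and 22.4% on patterned gelatin (means 65.3 and 175 TPM). Col4a3 (-2.12 ± 0.55) and Col25a1 (-0.64 ± 0.17) were lower. Col25a1 was at 28.3, 27.3 and 36.5 TPM on plastic against 19.2, 20.9 and 27.6 TPM, which overlap. Its 6701-base transcript Col25a1-202 had means of 18.1 ± 2.40 TPM on plastic and 8.61 ± 2.09 TPM on patterned gelatin. Its 2624-base transcript Col25a1-201 had means of 10.2 ± 1.97 and 12.3 ± 5.91 TPM. Single transcripts were not tested.

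The 3 libraries of C2C12 D7 on patterned gelatin stood apart in other ways. Genes of the mitochondrial genome took 1.93%, 1.78% and 0.902% of their counts, the lowest of all 30 libraries, against 2.72% to 4.02% on plastic at D7 and 2.73% to 4.24% on patterned gelatin at D4. Replicate 3, the highest in Col1a1 and Col3a1, had the fewest counts (13.1 M) and the highest share of counts in unmatched transcripts (0.893%) of all 30. These values move with every change at D7 on patterned gelatin, from D4 and against plastic, and their part was not tested. With only the 6 libraries compared no collagen gene passed, and with protein-coding transcripts alone 5 did, 4 higher and 1 lower. Without C2C12 D7 on plastic replicate 1 the number was 6, and without C2C12 D7 patterned replicate 3 it was 6. Of the fibroblast markers, 4 of 8 tested were higher on patterned gelatin at D7, and their 12 genes summed to 406 to 508 TPM on plastic and to 565 to 629 TPM on patterned gelatin, the highest being Gsn (231 to 251 and 288 to 323 TPM) and Ly6a (107 to 134 and 149.6 to 189 TPM). Thy1, Lum and Tcf21 were at or below 0.305 TPM in all of these libraries. Dcn, the fibroblast proteoglycan decorin, was at 82.4, 78.5 and 34.1 TPM on plastic and at 104, 89.1 and 47.9 TPM on patterned gelatin, which overlap. C2C12 cells at D0 carried the 12 markers at 728 to 809 TPM, and their part in the collagen differences was not tested. On unpatterned gelatin at D7, Col5a3 (0.78 ± 0.21), Col14a1 (1.07 ± 0.29) and Col3a1 (0.75 ± 0.20) were higher than on plastic (adjusted p 0.044 to 0.047), where 3.46% of all genes passed, 2.49% higher and 0.977% lower, and none was called with only these 6 libraries. The number was 0 or 1 on leaving out any of these 6 except C2C12 D7 on plastic replicate 3.

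**Figure D4:**
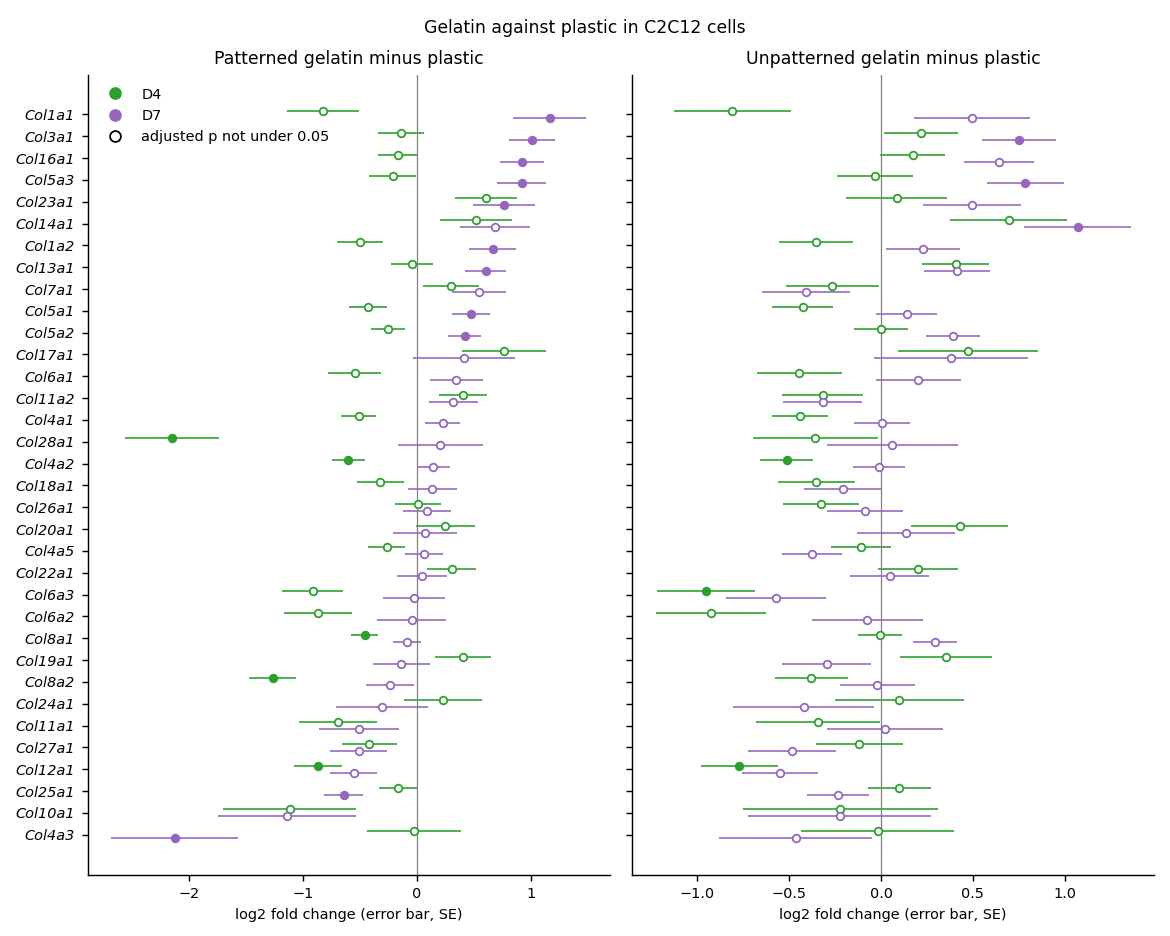
Log2 fold change of gelatin against plastic in C2C12 cells (horizontal) for the 34 collagen genes tested (vertical, ordered by the D7 patterned value), with standard errors, patterned gelatin on the left and unpatterned on the right. Green is D4 and purple is D7, filled where the adjusted p was under 0.05. On patterned gelatin Col1a1 lies at -0.82 at D4 and at 1.17 at D7.

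The difference between the D7 and the D4 effect of patterned gelatin was tested directly, as an interaction. It passed for 11 of 34 collagen genes, all in the direction of a higher effect at D7, where 6.24% of all genes passed in that direction and 5.5% in the other. They were Col1a1, Col1a2, Col3a1, Col5a1, Col5a2, Col5a3, Col4a1, Col4a2, Col8a2, Col16a1 and Col28a1. Col28a1 was under 1 TPM in these libraries except replicate 2 on plastic at D4 (1.56 TPM) and at D7 (1.14 TPM). The Col16a1 difference of 1.09 was 0.01 with protein-coding transcripts alone, where its calls from D4 to D7 on plastic and between patterned gelatin and plastic at D7 were lost as well (adjusted p = 0.74 and 0.24). The log2 fold change of Col1a1, patterned gelatin against plastic, was -0.82 ± 0.32 at D4, where it did not pass by itself (adjusted p = 0.16), and 1.17 ± 0.32 at D7, and these differed by 1.99 ± 0.45 (adjusted p = 0.024). Col1a2 differed by 1.16 ± 0.29 (0.028) and Col3a1 by 1.15 ± 0.29 (0.028). With only the 12 libraries of these 4 groups none passed, and the adjusted p of Col1a1 was then 0.051. Each of the 11 calls was lost on leaving out at least 1 library, and the number was 0 without C2C12 D4 on plastic replicate 2, D4 patterned replicate 1 or D4 patterned replicate 3. It was 7 without D4 on plastic replicate 1, 6 without D4 patterned replicate 2, 2 and 3 without D7 on plastic replicates 1 and 3, and 4 without D7 patterned replicate 3. The same interaction on unpatterned gelatin passed for no collagen gene and for none of all genes by edgeR (0.0%), of which 1532 had an unadjusted p under 0.05, and for no collagen gene by DESeq2.

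Primary and C2C12 cells were compared at D0 on plastic and at D4 and D7 on patterned gelatin. Collagen genes passed in 22, 19 and 24 of 36 cases, with 8, 6 and 6 higher and 14, 13 and 18 lower in primary cells, where 57.5%, 50.6% and 51.5% of 15447 genes passed. Of all genes 29.6%, 25.7% and 25.0% were higher and 27.9%, 25.0% and 26.4% lower in primary cells on these days. On all 3 days 12 genes were lower in primary cells (Col1a1, Col1a2, Col3a1, Col5a2, Col5a3, Col6a1, Col6a2, Col6a3, Col8a2, Col12a1, Col14a1 and Col22a1) and 5 higher (Col19a1, Col20a1, Col24a1, Col25a1 and Col26a1). The share of all genes called the same way on all 3 days was not counted, so these 2 numbers have no background to be set against. The cell types differ in origin, strain and history as well as in being a line or a primary culture. Per the study's methods, primary myoblasts were also expanded in a different medium, with more serum and with basic fibroblast growth factor. These differences cannot be told apart. The 6 pericyte and smooth muscle markers summed to more in primary cells on each day without overlap (27.9 to 59.2 against 10 to 14 TPM at D0, 39.6 to 53.1 against 10.6 to 16.0 at D4 and 31.6 to 49.5 against 9.79 to 13.2 at D7), with 2 of 4 tested higher and 2 lower on each day. Rgs5, the pericyte gene, was at 23.1 to 58.9 TPM in primary cells at D0 and Myh11, of smooth muscle, at or below 0.18 TPM in all libraries, and at D4 and D7 most of the primary sum was Abcc9 (30.9 to 49.9 TPM). Their part was not tested.

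Type I collagen RNA was almost missing from primary cells. Col1a2 was at 0.179 to 1.24 TPM in the 9 primary libraries and at 145 to 419 TPM in the 21 C2C12 libraries, and the log2 fold change at D0 was -10.58 ± 0.47 (adjusted p = 3.4e-15). Col1a1 was at 0.264 to 2.61 TPM against 15.9 to 97.7 TPM (at D7, -6.09 ± 0.52, 7.3e-10). The pair did not overlap between the cell types. Col6a3, at 4.71 to 121 TPM in C2C12 cells, had 3 counts in all at D0, 28 at D4 and 14 at D7 in the primary libraries, too few for a fold at D0. Of the 9 fibroblast markers tested, 7 to 8 were lower in primary cells on each day. The 12 markers summed to 177 to 249 TPM in primary cells at D0 and to 49.6 to 177 TPM at D7, mostly from Gsn, against 728 to 809 TPM in C2C12 cells at D0 and 565 to 629 TPM at D7 on patterned gelatin. Dcn was at 0.245 to 1.71 TPM in primary and 14.2 to 132 TPM in C2C12 cells, and Lum and Tcf21 were at or below 0.102 TPM in both. The part of these markers in the collagen differences was not tested.

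Col3a1, at 256 ± 38.2 TPM, was the highest fibrillar gene of primary cells at D0. At D4 and D7 the means of Col5a1, 60.9 ± 33.6 and 49.9 ± 36.4 TPM, were above those of Col3a1, 52.9 ± 44.7 and 35 ± 33 TPM, by less than their spread, and Col5a2 had means of 25.7 to 38.2 TPM on the 3 days. The distance of Col3a1 from C2C12 widened with time, from a log2 fold change of -1.45 ± 0.59 at D0 (adjusted p = 0.037, a call lost on leaving out any 1 of the 6 libraries) to -3.06 ± 0.62 at D4 (0.00024) and -4.48 ± 0.66 at D7 (4.6e-06). The change from D0 to D7 differed between cell types (-3.03 ± 0.83, adjusted p = 0.0072). Primary D7 levels were 69.8, 31.1 and 4.14 TPM. Col5a1 was closer, at 41.7 to 80.8 TPM in primary cells and 64.7 to 86.9 TPM in C2C12 cells at D0, and passed at D7 (-1.16 ± 0.39, adjusted p = 0.015, and -0.71 with 0.017 without number 3).

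Basement membrane collagen was made by both cell types. Col4a1 was at 171, 185 and 89.5 TPM in primary and 75.4, 92.5 and 70.6 TPM in C2C12 myoblasts, and at D7 on patterned gelatin at 87.7, 30.7 and 4.62 TPM against 46.0, 50.1 and 58.4 TPM. Col4a1 and Col4a2 passed on no day by edgeR, but the spread of the primary libraries was wide, and at D0 Col4a1 was higher in primary cells without number 3 (1.23, adjusted p = 0.00058). The α5 chain, Col4a5, was at 1.46 to 9.36 TPM in primary and 2.57 to 5.51 TPM in C2C12 cells. Col4a1 and Col4a2 lie head to head on chromosome 8 (GRCm38), with starts at bases 11312826 and 11312805 on opposite strands and opening exons that overlap.

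Genes higher in primary cells were mostly rare collagens. Col25a1 was at 58.9 to 194 TPM in primary myotubes and at 10.5 to 36.5 TPM in C2C12 myotubes, with log2 fold changes of 5.93 ± 0.53 at D0 (adjusted p = 1.0e-09), 4.02 ± 0.41 at D4 (1.4e-08) and 2.89 ± 0.39 at D7 (1.1e-06). Col19a1, a fibril-associated collagen needed for the striated muscle of the oesophagus, was at 77.2, 56.5 and 1.88 TPM in primary cells at D0 and at 0.422, 0.461 and 0.433 TPM in C2C12 cells (6.71 ± 0.87, 5.1e-07), and 7.29 without number 3. Col24a1, a rare fibrillar gene, was at 4.32, 4.81 and 4.10 TPM at D0 against 0.768, 0.467 and 0.181 TPM (4.23 ± 0.40, 3.6e-09). The primary and C2C12 libraries did not overlap at D0 for any of the 3. Col8a1 passed on no day, and at D0 its log2 fold change was 1.80 (adjusted p = 0.056) with all libraries and 2.29 (2.6e-10) without number 3. Its primary D0 levels of 95.7, 95.3 and 14.4 TPM lay above and below the C2C12 levels of 21.9, 20.7 and 18.5 TPM.

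Col26a1 was higher in primary cells, with 43.9 to 72.1 TPM against 11.5 to 26.0 TPM at D0 (log2 fold change 3.38 ± 0.21, adjusted p = 1.7e-12), but its transcripts differed. In C2C12 cells 94.5% of its TPM came from a single 578-base transcript annotated as a retained intron, with 3.00% from full protein-coding transcripts, and in primary cells the shares were 41.5% and 33.8%. Counting protein-coding transcripts alone gave a log2 fold change of 7.50 (adjusted p = 3.1e-15). Col7a1, Col16a1 and Col27a1 were also carried mainly by transcripts other than long protein-coding ones, which held 29.5%, 24.6% and 4.38% of their C2C12 TPM. Col1a1, Col4a1, Col4a2, Col5a1, Col5a2, Col6a1 and Col8a1 were at or above 91.0% in long protein-coding transcripts.

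The test of whether the change from D0 to D7 on patterned gelatin differed between cell types passed for 11 of 36 collagen genes, 3 higher and 8 lower in primary cells, where 14.0% of all genes were higher and 18.1% lower. Col25a1 was higher at D7 than at D0 in both, with the smaller difference in primary cells, which began higher (-3.05 ± 0.65, adjusted p = 0.00095), and the same held for Col13a1 (-2.37 ± 0.59, 0.0035). Col6a1 went from 17.3, 24.2 and 20.7 TPM to 50.5, 47.6 and 75.4 TPM in C2C12 cells and from 5.57, 5.40 and 4.89 TPM to 2.37, 0.901 and 0.153 TPM in primary cells (-3.39 ± 0.74, 0.0012). Without number 3 the calls of Col18a1 (-0.63, adjusted p = 0.13), Col11a1 (-1.80, 0.059), Col7a1 (-1.01, 0.064) and Col6a3 (5.08, 0.053) were lost.

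Chains that are built into the same molecule were not kept at a fixed ratio of RNA. Type I collagen is made of 2 α1 chains and 1 α2 chain, but the ratio of Col1a1 to Col1a2 TPM was 0.0493 to 0.336 in the 21 C2C12 libraries, 0.0582 on average at D0 and 0.288 at D4 on plastic, and the D0 libraries were below all others. Type VI collagen takes its 3 chains in equal number, and Col6a3 to Col6a1 was 5.28 ± 0.896 (SD, n = 3) at D0 and 0.445 ± 0.0735 at D4 on plastic, with 0.0932 to 0.973 in the D7 libraries. Col6a1 to Col6a2 was 4.59 at D0 and 1.78 at D4 on plastic. Col4a1 to Col4a2, a molecule of 2 and 1, had the narrowest range of these 4 pairs, at 1.03 to 1.36 in the C2C12 libraries, and was 2.34 in primary cells at D0. Ratios compare the genes per length on the TPM scale, and with long protein-coding transcripts alone Col6a3 to Col6a1 was 3.09 at D0 and 0.286 at D4 on plastic, in the same order. No ratio was tested.

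**Figure D5:**
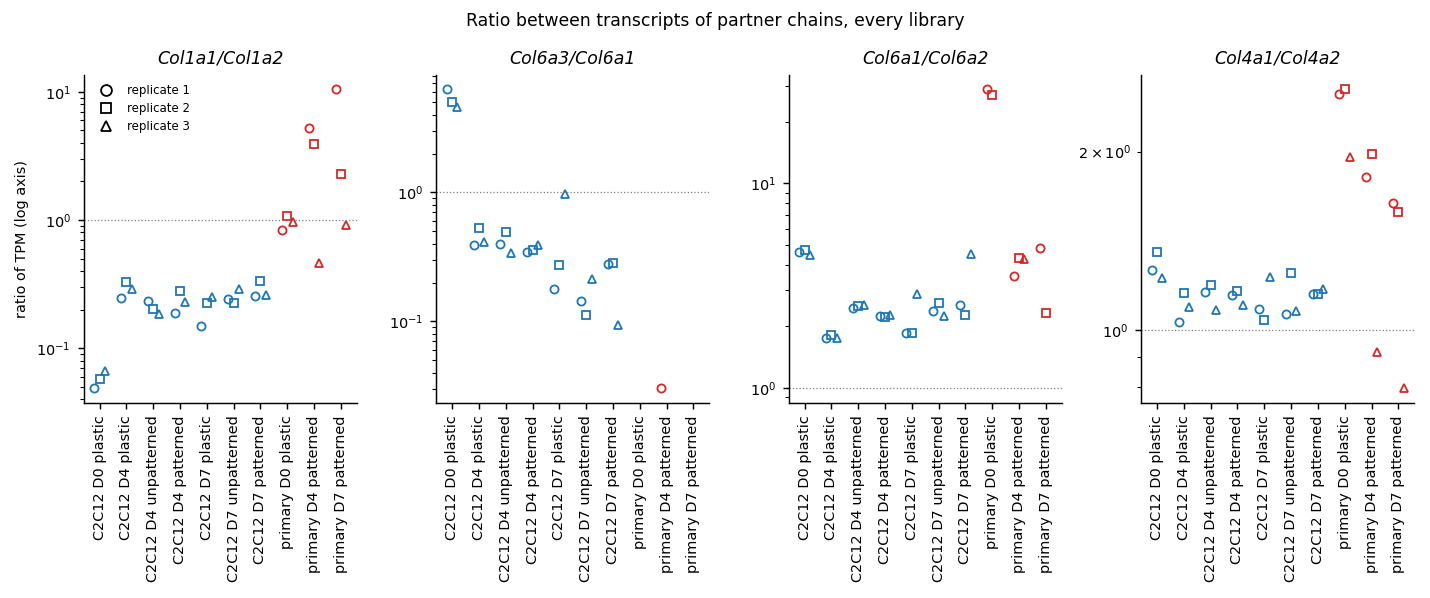
Ratio of TPM on a log axis (vertical) between 4 pairs of partner chains in each library, by group (horizontal), blue for C2C12 and red for primary, drawn where both genes had at least 10 counts. The dotted line is a ratio of 1. Col1a1/Col1a2 is lowest and Col6a3/Col6a1 highest in C2C12 at D0, and Col4a1/Col4a2 stays between 1.03 and 1.36 in C2C12.

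Genes that process collagen were followed as a list of 40, of which 37 were tested in C2C12 cells. From D0 to D4 on plastic 12 rose and 15 fell, which is 73.0% of those tested, where 58.0% of all genes passed. Those with the smallest adjusted p were Pcolce2, an enhancer of the removal of the procollagen end (log2 fold change -1.99 ± 0.11), Loxl2, a cross-linking enzyme (-2.18 ± 0.13), Adamts2, which cuts the amino end of procollagen (1.38 ± 0.11), and P4ha3, a subunit of prolyl hydroxylase (-1.86 ± 0.18). In primary cells 7 rose and 10 fell of 36, which is 47.2%, near the 42.6% of all genes, with P4ha2 (1.04 ± 0.13) up and Ppib, a prolyl isomerase that helps collagen fold (-1.52 ± 0.19), down. Of 37 genes, 4 rose and 15 fell on plastic from D4 to D7 (51.4%, where 14.8% of all genes changed), and on patterned gelatin 4 rose and 1 fell (13.5%, where 20.3% of all genes changed). At D7 11 were higher on patterned gelatin than on plastic and none lower (29.7%, where 12.9% of all genes were higher and 10.9% lower). Loxl2 was higher on gelatin in all 4 comparisons with plastic, by 0.67 ± 0.12 and 0.82 ± 0.13 on patterned gelatin at D4 and D7 and by 0.86 ± 0.12 and 1.04 ± 0.13 on unpatterned gelatin. The interaction of patterned gelatin with day passed for 14 in the direction of a higher effect at D7 and for 1 in the other, where 6.24% and 5.5% of all genes did. Counts of processing genes are given for the main fit only, without the alternatives that moved the collagen counts. Those at D7 on patterned gelatin rest on the same libraries that stood apart in mitochondrial share.

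Between cell types, 9 of 37 processing genes were higher and 17 lower in primary cells at D0, where 29.6% of all genes were higher and 27.9% lower. All 5 cross-linking genes were lower there. Lox, lysyl oxidase, was at 3.26, 2.21 and 2.60 TPM in primary cells and at 216, 206 and 192 TPM in C2C12 cells at D0 (log2 fold change -6.19 ± 0.38, adjusted p = 1.4e-12). It rose in primary cells from D0 to D4 (3.34 ± 0.52, adjusted p = 0.0011) and was at 75.7, 20.6 and 25.2 TPM at D7, and its change from D0 to D7 differed between the cell types by 4.57 ± 0.45 (6.4e-08). Plod1, a lysyl hydroxylase, was lower in primary cells on all 3 days (-1.58 ± 0.11, -0.83 ± 0.11 and -0.95 ± 0.11), and P4ha1 was higher at D0 (1.27 ± 0.10) and D4 (0.77 ± 0.10).

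Of the genes at the bottom of the range, the 3 type IX genes were at or below 1.23 TPM, with Col9a1 at 0 in 28 of 30 libraries. Col2a1 and Col11a1 of cartilage stayed at or below 0.671 TPM, and Col10a1, the hypertrophic cartilage collagen, at or below 1.22 TPM. Col6a4, Col6a5 and Col6a6, the further α chains of type VI, were at or below 0.116 TPM, and Col4a4 and Col4a6 at or below 0.229 TPM. Of these type VI and type IV genes only Col4a6 was tested, and not in the C2C12 fit, so differences may be missed at this depth. Col10a1 and Col11a1 were tested in every fit, and Col9a3 in the fits that held primary libraries. Col6a6 had 1 count in all in primary cells at D0, 26 at D4 and 14 at D7, which was not tested. Col15a1, known from the muscle basement membrane, was at or below 0.557 TPM in all libraries.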

How the data were processed

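The authors ran kallisto on each library against mouse transcripts (mm10) and deposited 1 table per library with estimated counts, not normalized, and TPM (transcripts per 1000000) for each transcript. The kallisto version is not given in the sources used here. Of 88198 transcripts, 86031 were matched to GENCODE M21 and summed per gene, and the 2167 others held 0.723% to 0.893% of the counts. Library totals were 13.1 M to 59.4 M estimated counts (median 27.3 M, where M is 1000000), and low genes are limited by counting.

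Estimated counts were rounded to whole numbers and tested with edgeR 4.0.16 (R 4.3.3): filterByExpr, TMM scaling and the quasi-likelihood F test, with Benjamini-Hochberg adjustment over all genes and a threshold of 0.05. The 21 C2C12 libraries, the 9 primary libraries, and, between cell types, all 30 were fitted with a term per group. SE is the log2 fold change over the root of F. DESeq2 1.42.0, its size factors, no low-count filter, only the groups compared, each library left out, a replicate block and removal of a length trend were alternatives, and protein-coding transcripts alone, and no primary number 3, were added after the data were seen. The test was also run on simulated counts, with the same spread for all genes and no replicate pairing. That run does not show how the test behaves where libraries deviate together or stand apart. Levels are TPM, means are ± SD (n = 3).

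Groups came from the labels. The collagen genes and all lists were chosen with earlier results of these data known. Any collagen gene could be named, with values by library for up to 3 members of each class and the 2 highest and 2 lowest changes of each comparison, and some further members were chosen after their values were seen. Of the processing lists the 4 genes with the smallest adjusted p could be named, and Lox and Loxl2 were also followed outside that rule.

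Primary libraries of the same number deviated together from their group means (9 pairs, r from 0.206 to 0.778), and 8 of 9 correlated best with a library of the same number, so the number was treated as a pairing, known from the data and not from a stated source. C2C12 libraries were not paired.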

Additional observations from a re-analysis of the deposited data

Results flagged for a closer look

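The effect of patterned gelatin against plastic differed between D7 and D4 for 11 collagen genes by the interaction test in edgeR, all with the higher log2 effect at D7. The differences were 1.99 for Col1a1, 1.16 for Col1a2, 1.15 for Col3a1, 0.90 for Col5a1, 0.67 for Col5a2 and 1.13 for Col5a3 in the fibrillar class. They were 0.74 for Col4a1 and 0.74 for Col4a2 of the basement membrane, 1.03 for Col8a2, 1.09 for Col16a1 and 2.35 for Col28a1. The last gene was at or below 1.56 TPM in every library. Counting protein-coding transcripts alone, the Col16a1 difference was 0.01.

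The change from D0 to D7 on patterned gelatin differed between primary and C2C12 cells for 11 collagen genes. The log2 change of primary cells minus that of C2C12 cells was -3.39 for Col6a1, -3.05 for Col25a1, -3.03 for Col3a1, -2.57 for Col11a1, -2.37 for Col13a1, -1.42 for Col26a1, -1.39 for Col18a1 and -1.01 for Col7a1. It was 3.21 for Col5a3, 5.40 for Col6a3 and 5.96 for Col10a1. Col6a3 and Col10a1 rested on 3 and 1 counts in all at D0 in primary cells, and on 14 and 74 at D7, so their fitted differences depend on the prior count and are no bound.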

How the results depend on the processing

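When the fit held just the libraries being compared, the number of collagen genes called went from 9 to 2 for D7 against D4 on patterned gelatin, from 1 to 5 on unpatterned gelatin, from 5 to 15 for patterned gelatin against plastic at D4 and from 11 to 0 at D7, from 3 to 9 and from 3 to 0 for unpatterned gelatin against plastic at D4 and D7, from 0 to 2 for patterned against unpatterned gelatin at D4, and from 11 to 0 for the interaction of patterned gelatin with day. Protein-coding transcripts alone gave 5 in place of 11 and 1 in place of 3 for patterned and unpatterned gelatin against plastic at D7, and 2 in place of 1 for D7 against D4 on unpatterned gelatin, where no filter and removal of the length trend also gave 2 and DESeq2 gave 4. For patterned against unpatterned gelatin DESeq2 gave 2 at D4 and 1 at D7 in place of 0. The cause of these moves was not tested. Of 162 called gene results none turned its direction where an alternative gave a value. DESeq2 kept 158 and lost 2, only the libraries compared kept 108 and lost 43, and protein-coding transcripts alone kept 142 and lost 15, and the others had no value there.

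Leaving out 1 library at a time gave 19 to 21 calls for C2C12 D4 against D0 and 6 to 14 for D7 against D4 on plastic, 0 to 1 on unpatterned and 2 to 10 on patterned gelatin. It gave 0 to 0 and 0 to 2 for patterned against unpatterned gelatin at D4 and D7, 2 to 3 and 6 to 10 for patterned gelatin against plastic, 0 to 1 and 0 to 3 for unpatterned gelatin against plastic, 0 to 14 for the patterned interaction and 0 to 0 for the unpatterned. It gave 7 to 11 and 0 to 0 for primary D4 against D0 and D7 against D4, 20 to 22, 19 to 24 and 22 to 25 for primary against C2C12 at D0, D4 and D7, and 10 to 14 for the difference in change between cell types.

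With the replicate block, primary D4 against D0 gave 18 calls in place of 10, and no other count moved by over 1.5 times: the difference in change between cell types gave 16 in place of 11. The block was fitted within each cell type. Between cell types it takes away the spread among primary cultures, so single calls it gave there are not reported. Without number 3, primary D4 against D0 gave 18 and D7 against D4 gave 1. In C2C12 cells the numbers paired nothing (63 pairs, r from -0.187 to 0.223), and 7 of 21 libraries correlated best with one that shared their number. DESeq2's size factors in edgeR kept the number of calls in every comparison. Genes under 1 TPM are limited by depth.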
